A study of Mus musculus with 4 samples.

Results

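Border-associated macrophages are the macrophages of the meninges, the perivascular spaces and the choroid plexus, next to but outside the tissue that microglia occupy. They are told apart from microglia by transcripts for endocytic and scavenger receptors, lectins and chemokines, and they share most general macrophage transcripts with microglia. The data described here cover 9 genes widely used to mark them, taken by name: the chemokines Pf4, Ccl24 and Ccl8, the surface receptors Folr2, Lyve1, Cd209f and Clec10a, and the enzymes F13a1 and Cbr2. All 9 names were found, as 9 of the 51826 gene models in the table. Their change was measured in cultured primary mouse microglia given lysophosphatidylserine (LysoPS), a lysophospholipid ligand of the receptor GPR34.

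The cells came from newborn C57BL/6 mice. The meninges were taken off first, the brain tissue was digested with trypsin and grown for 2 weeks, and loosely attached cells were shaken off and called primary microglia. By the labels of the single samples, one group of 2 libraries was mock (untreated) and the other group of 2 was treated with LysoPS for 4 h. The treatment protocol speaks of 1 treated replicate, so the labels differ on whether both libraries called LysoPS here were treated; the sample labels were followed, and every fold and p-value below rests on them. No genetic change is named, the dose of LysoPS is not given in the sources used here, and nothing says whether replicates came from separate cultures or animals, so p-values measure the spread between these samples, which may be technical. Library totals ranged from 30001098 to 45193959 counts. Levels between genes are compared as the deposited TPM (a share of all transcripts that allows for their length), and changes of a gene are tested on its counts and given as CPM (a share of the library's counts, scaled by TMM). Adjusted p-values are from edgeR's quasi-likelihood test with Benjamini-Hochberg adjustment over 19057 genes. Every standard error (SE) is that of the log2 fold change of LysoPS over mock.

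The cultures carried microglial transcripts in mock, with Tmem119 at a mean of 53.7 TPM and P2ry12 at 8.98 TPM. Siglech, also a microglia marker, held 2 counts in each mock library and 0 in each LysoPS library. Of the genes that define border macrophages, the mannose receptor Mrc1 stood at 33.1 TPM in mock, while the haemoglobin scavenger receptor Cd163 stood at 0.256 TPM and the lectin Mgl2 had no count in any library. Astrocyte and fibroblast RNA was present too, with Gfap at 4781 TPM and Col1a1 at 1099 TPM in mock. The data hold no single-cell information, so a change in the number of cells that make a transcript and a change in the RNA per cell cannot be told apart, and which cells the 9 transcripts came from was not tested.

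After 4 h of LysoPS, 4 of the 9 genes had changed, in both directions. Pf4 rose 2.55-fold and Cd209f went from no counts to 109, while the folate receptor gene Folr2 fell to 0.561 of its mock level and the factor XIII gene F13a1 to 0.683. Of the 9 genes, 8 passed the filter on low counts and were tested: 2 were higher, 2 were lower and 4 did not pass the threshold. Over all tested genes 25.5% passed, 12.8% as higher and 12.6% as lower. Cd209f and Ccl8 passed the filter only through their LysoPS libraries, so the count of genes called is a description. In 4 of the 8 both LysoPS libraries lay above both mock libraries, in 3 both lay below and in 1 (Clec10a) they overlapped; over all tested genes the shares above and below were 32.5% and 34.5%.

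In mock the levels spanned from 48.6 TPM to none. Pf4 was highest (48.6 ± 4.56 TPM, SD, n = 2), followed by Folr2 (35.7 ± 0.506), F13a1 (8.56 ± 0.0930) and Cbr2 (1.29 ± 0.0423), and no library of one of these overlapped the next. Lyve1, Ccl8, Clec10a and Ccl24 had means from 0.200 to 0.477 TPM, and each overlapped its neighbour in that order. Cd209f was listed at 0. After LysoPS, Pf4, Folr2 and F13a1 kept the first 3 places, Ccl8 came next (3.85 ± 0.639 TPM, n = 2), and Cbr2 and Cd209f overlapped behind it. Ccl24, Clec10a and Lyve1 were the lowest, and Clec10a overlapped both of the others. The transcript length implied for Clec10a by its deposited counts and FPKM differed 2.84-fold between libraries, so its place and overlaps in both orders are uncertain.

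**Figure D1:**
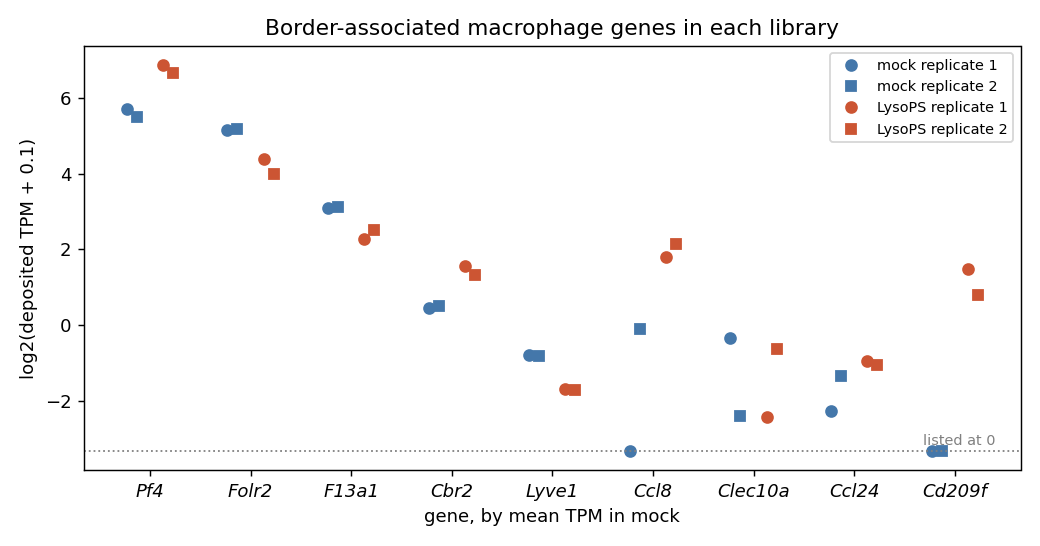
Deposited TPM of the 9 genes on a log2(TPM + 0.1) axis, with mock in blue and LysoPS in orange, circles for replicate 1 and squares for replicate 2, ordered by mean mock level. Pf4, Cbr2, Ccl8, Ccl24 and Cd209f lie higher in both LysoPS libraries, Folr2, F13a1 and Lyve1 lie lower in both, and Clec10a overlaps. The TPM values of Clec10a are not comparable between libraries, because its implied transcript length differed between them.

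The summed level of the 9 genes was higher after LysoPS, and Pf4 supplied most of the difference. The sum was 98.2 and 93.0 TPM in mock replicates 1 and 2 and 151.7 and 132.4 TPM in LysoPS replicates 1 and 2. Pf4 made up 52.8% and 48.8% of it in mock and 76.74% and 76.65% after LysoPS, while the share of Folr2 went from 36.0% and 38.7% to 13.75% and 11.96%. Within a library the TPM of Pf4 was 1.47 and 1.26 times that of Folr2 in mock, and 5.58 and 6.41 times after LysoPS. These shares follow from the levels and were not tested separately.

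**Figure D2:**
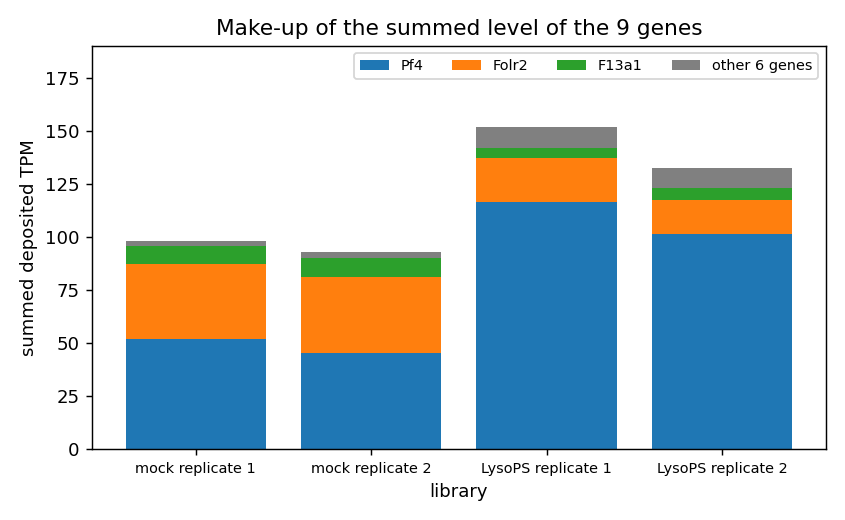
Summed deposited TPM of the 9 genes in each library, stacked by gene, with Pf4, Folr2 and F13a1 shown on their own and the other 6 together in grey. The LysoPS bars (151.7 and 132.4 TPM) are taller than the mock bars, and most of the added height is Pf4.

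The promoter stretches of Pf4, the gene with the largest called rise among those counted in mock, of Cd209f, which appeared from no counts, and of Folr2, which had the largest called fall, are shown so that the starts of genes that moved in different directions can be compared. They are the RefSeq sequences for GRCm38.p6, 5′ to 3′ on the gene's strand, ending at the last base before the deposited gene model. Capitals mark every match, on either strand, to the letters TGANTCA (AP-1), GAGGAA (core of PU.1 sites) or TGCTGA (a MAF core), and no matches overlapped.
Pf4, chr5:90772185-90772434, plus strand: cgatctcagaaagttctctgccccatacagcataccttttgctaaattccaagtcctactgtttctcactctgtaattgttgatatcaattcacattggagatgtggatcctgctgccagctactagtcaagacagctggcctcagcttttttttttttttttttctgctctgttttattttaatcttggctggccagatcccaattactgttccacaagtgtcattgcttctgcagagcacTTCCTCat
Cd209f, chr8:4105836-4106014, minus strand: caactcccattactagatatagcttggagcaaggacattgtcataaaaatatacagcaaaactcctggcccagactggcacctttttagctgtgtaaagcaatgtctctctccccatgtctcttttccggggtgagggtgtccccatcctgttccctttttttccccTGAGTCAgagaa
Folr2, chr7:101857195-101857440, minus strand: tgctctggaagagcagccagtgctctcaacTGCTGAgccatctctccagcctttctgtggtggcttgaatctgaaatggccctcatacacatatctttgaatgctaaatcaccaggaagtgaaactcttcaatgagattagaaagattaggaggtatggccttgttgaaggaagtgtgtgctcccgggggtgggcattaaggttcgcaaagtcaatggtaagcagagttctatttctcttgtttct
Each stretch held 1 match, to a different pattern. The AP-1 letters of Cd209f began 12 bases before its gene model, and 4.9% of 32851 promoter windows of the same length held them. Pf4 held the PU.1 letters, beginning 8 bases before its model, as did 23.3% of windows of its length. Folr2 held the MAF letters 216 bases before its model, as did 15.9%. RefSeq windows were found for 6 of the 9 genes; of the other 3, F13a1 held 1 PU.1 match, Ccl8 held 1 PU.1 match and 2 MAF matches, and Cbr2 held no match. A match is a string of letters, and no binding was measured.

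Pf4 (ENSMUSG00000029373) encodes platelet factor 4, also called CXCL4, a chemokine that platelets store and that brain macrophages also transcribe. It lies at 90772435 to 90773383 of chromosome 5 (plus strand, GRCm38), between Ppbp and Cxcl3. Its level was 14.1 and 12 CPM in mock replicates 1 and 2 and 36.3 and 30.1 CPM in LysoPS replicates 1 and 2. The lower LysoPS library lay above the higher mock library by more than the gap between replicates (log2 fold change 1.35, SE 0.142, adjusted p = 0.00393). Leaving out any 1 library gave log2 fold changes from 1.20 to 1.48, all past the threshold.

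Other platelet transcripts were scarce and did not pass the threshold. Of 8 platelet and megakaryocyte markers, 4 were tested and 0 were called by edgeR, DESeq2 or limma-voom, with 2, 1 and 1 at an unadjusted p under 0.05. Ppbp, which lies beside Pf4 and is the other main platelet chemokine gene, held 10 and 20 counts in mock and 54 and 29 after LysoPS (log2 fold change 1.48, adjusted p = 0.11). Gp9, which encodes a subunit of the platelet von Willebrand factor receptor, held 2 and 0 counts in mock and 8 and 4 after LysoPS. The summed level of the 8 markers ranged from 12.9 to 15.2 TPM in mock and from 9.68 to 9.71 TPM after LysoPS. The neutrophil-attracting chemokine genes of the same cluster moved further than Pf4 from lower levels. Cxcl5 went from 0.670 to 46.1 TPM, Cxcl1 from 1.05 to 106.6 TPM and Cxcl2 from 0.573 to 72.0 TPM, as group means. Cxcl3 held 4 and 0 counts in mock against 238 and 245 after LysoPS, and Cxcl15 none in any library.

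Ccl8 (ENSMUSG00000009185) and Ccl24 (ENSMUSG00000004814) encode chemokines made by alternatively activated and border macrophages, and both were scarce. Ccl8 lies at 82115185 to 82116799 of chromosome 11 (plus strand) and held 0 and 9 counts in mock replicates 1 and 2 and 31 and 49 counts in LysoPS replicates 1 and 2. In CPM the mock libraries stood at 0 and 0.208 and the LysoPS libraries at 0.926 and 1.12, so the groups did not overlap. The ratio over the pooled counts was 8.53, with a 95% interval from 4.28 to 19.3 that covers counting error only, and the test missed the threshold (log2 fold change 3.09, SE 0.830, adjusted p = 0.05003). With all 4 libraries the alternatives fell on both sides of the threshold, with adjusted p-values from 0.0155 (DESeq2) to 0.0692 (limma on log2(TPM + 0.1)). Ccl8 passed the filter only through its LysoPS libraries, so a call of it is a description and no sign of stability. All 9 mock counts came from mock replicate 2, and without that library no mock count remained, so no fold is given for that case; without mock replicate 1 the log2 fold change was 2.29.

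The neighbours of Ccl8 on chromosome 11 were called higher with far more counts. Ccl2, the main monocyte attractant, went from 101 and 125 counts to 5707 and 5846, Ccl7 from 31 and 30 to 1605 and 1746, and Ccl12, the nearest coding gene at 11784 bases, from 26 and 28 to 639 and 576. Of the 11 chemokine genes that neighbour Pf4, Ccl8 and Ccl24, 8 were tested and 7 were higher (median log2 fold change 5.92, against -0.01 over all tested genes). Cxcl2 (14 and 7 counts in mock) and Cxcl3 (4 and 0) passed the filter only through their LysoPS libraries, so this count and median are descriptions. The eotaxin gene Ccl11, in the same cluster as Ccl8, held 6 counts in each replicate 1 library and none in the others. Ccl24, at 135569937 to 135573049 of chromosome 5 (minus strand), held 2 and 8 counts in mock and 10 and 11 after LysoPS. It did not pass the filter; none of the 5 alternative fits that kept it called it, with adjusted p-values from 0.33 to 0.709, and its pooled ratio of 2.02 had a counting interval from 0.908 to 4.79. Its neighbour Ccl26 had no count in any library.

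Receptor genes for these chemokines were expressed at low levels. Ccr3, the receptor of CCL24, rose from 20 and 29 counts in mock to 52 and 66 after LysoPS (log2 fold change 1.21, adjusted p = 0.0256), and Ccr1 rose by 0.63. Cxcr3, a receptor of CXCL4, stood at 0.428 TPM in mock and 0.639 TPM after LysoPS and did not pass. Ccr2 had 6 to 15 counts per library and Ccr8 none, and neither was tested.

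Among the receptors, Folr2 and Cd209f moved in opposite directions. Folr2 (ENSMUSG00000032725), at 101839988 to 101857194 of chromosome 7 (minus strand), encodes folate receptor beta, a membrane-anchored folate carrier of resident macrophages. Its level was 16.8 and 16.7 CPM in mock replicates 1 and 2 and 10.8 and 7.96 CPM in LysoPS replicates 1 and 2. Both LysoPS libraries lay below both mock libraries, and the gap between the LysoPS replicates was wider than that between the mock replicates (log2 fold change -0.84, SE 0.170, adjusted p = 0.0235). Without mock replicate 1 the adjusted p was 0.0771 and without mock replicate 2 it was 0.0761, with log2 fold changes of -0.83 and -0.84. An antisense gene, Gm10602, overlaps its exons and held 125 and 247 counts in mock and 114 and 167 after LysoPS, and whether the libraries keep strand is not stated. Folr1, the epithelial folate receptor gene next to it, stood at 15.5 TPM in mock and 16.7 TPM after LysoPS and did not pass (adjusted p = 0.617).

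Cd209f (ENSMUSG00000051906), at 4102787 to 4105835 of chromosome 8 (minus strand), belongs to the mouse relatives of the lectin DC-SIGN, which bind glycans of microbes and host cells. It had 0 counts in each mock library and 56 and 53 counts in LysoPS replicates 1 and 2, or 1.67 and 1.21 CPM. The LysoPS level was at least 34.9-fold higher than the limit that 3 counts over the mock libraries give, 0.0405 CPM, and the test called it (adjusted p = 0.00553). Its neighbour Cd209g showed the same pattern at a lower level, with 0 and 0 counts in mock and 22 and 25 after LysoPS, at least 15.03-fold higher (adjusted p = 0.0113). Of the stretches of 50 bases in Cd209f transcripts, 29.8% also occur in Cd209g, so reads may have been split between them. Summed, the pair held 0 and 0 counts in mock and 78 and 78 after LysoPS, at least 49.9-fold higher (adjusted p = 0.00363). Cd209f, Cd209g and their sum all passed the filter only through the LysoPS libraries, so these calls are descriptions. The sum was added after the data were seen and is not separate evidence for Cd209f. Cd209a, which dendritic cells carry, had no count in any library, nor had Cd209b, Cd209d and Cd209e, and Cd209c had 1 count in each replicate 1 library.

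Lyve1 and Clec10a were near the lower limit of detection. Lyve1 (ENSMUSG00000030787), at 110850607 to 110863239 of chromosome 7 (minus strand), encodes a hyaluronan receptor of lymphatic vessels and of perivascular macrophages. It held 21 and 27 counts in mock and 11 and 14 after LysoPS, or 0.682 and 0.624 against 0.329 and 0.320 CPM. Both LysoPS libraries lay below both mock libraries, with a log2 fold change of -0.999 (SE 0.356) that missed the threshold (adjusted p = 0.103; 0.0959 to 0.362 over 13 alternatives, none past it). Of 5 lymphatic endothelial markers, Mmrn1 had no count, Prox1 stood at 6.46 TPM in mock and 5.25 TPM after LysoPS, and only Pdpn, which astrocytes also express, was called (log2 fold change 0.38). Clec10a (ENSMUSG00000000318), at 70156197 to 70170834 of chromosome 11 (plus strand), encodes a lectin for galactose-type sugars. It held 11 and 5 counts in mock and 4 and 12 after LysoPS, and the groups overlapped (log2 fold change -0.14, SE 0.780, adjusted p = 0.915). The counting interval of its pooled ratio, from 0.449 to 2.05, covers counting error only and includes both a fall and a rise. The transcript length implied by its deposited counts and FPKM differed 2.84-fold between libraries, so its TPM values are not comparable between them.

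Of the 2 enzyme genes, F13a1 fell and Cbr2 did not pass the threshold. F13a1 (ENSMUSG00000039109), at 36867178 to 37050244 of chromosome 13 (minus strand), encodes the A chain of coagulation factor XIII, a transglutaminase that cross-links fibrin. Its level was 15.4 and 15.2 CPM in mock replicates 1 and 2 and 9.89 and 11.0 CPM in LysoPS replicates 1 and 2. The LysoPS libraries lay below the mock libraries by more than the gaps between replicates (log2 fold change -0.55, SE 0.113, adjusted p = 0.0245). The call was lost without mock replicate 1 (adjusted p = 0.122), mock replicate 2 (0.114) or LysoPS replicate 1 (0.0530), with log2 fold changes from -0.56 to -0.48. The antisense gene Gm30489 overlaps its exons in GENCODE M21 and was not analysed here. Cbr2 (ENSMUSG00000025150), at 120729489 to 120732114 of chromosome 11 (minus strand), encodes a mitochondrial carbonyl reductase. It held 14 and 27 counts in mock and 40 and 48 after LysoPS, or 0.454 and 0.624 against 1.20 and 1.10 CPM. The groups did not overlap, and the test missed the threshold (log2 fold change 1.06, SE 0.311, adjusted p = 0.0628; 0.0290 to 0.264 over 13 alternatives, 2 past it). Its implied transcript length differed 1.36-fold between libraries, and 12.1% of its 50-base stretches also occur in Gm11771.

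**Figure D3:**
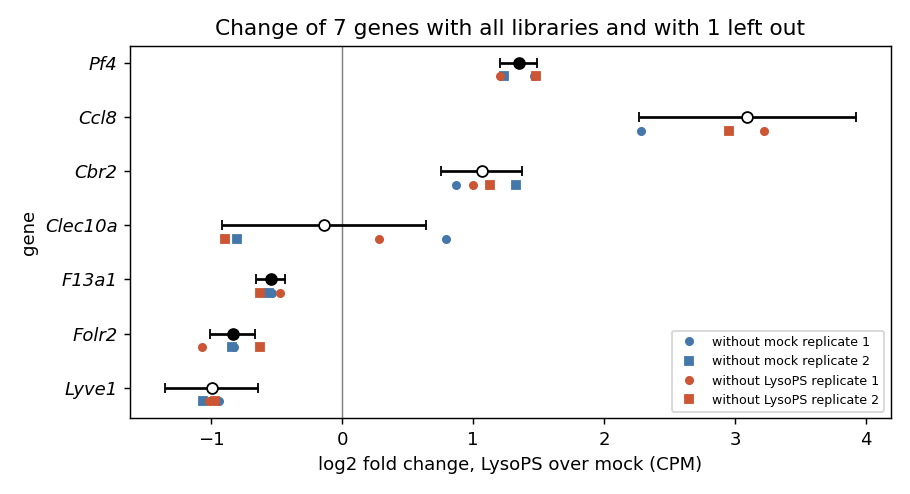
Log2 fold change of LysoPS over mock for the 7 tested genes with mock counts, as black points with bars of 1 SE (filled where the adjusted p is under 0.05), and below each the value with 1 library left out. Pf4 stays between 1.20 and 1.48, Folr2 and F13a1 stay below 0, and Clec10a lies on both sides of 0; the value of Ccl8 without mock replicate 2 is not drawn because no mock count remained.

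The genes most alike in pattern, by the distance between log2 CPM profiles centred over the 4 libraries, were found among 12626 genes of at least 5 CPM. For Pf4 they were P2ry6, a receptor for extracellular UDP (distance 0.0535), and Lrrc32 (0.0688). For F13a1 they were Gpr37l1 (0.0143) and Mks1 (0.0158), and for Folr2 they were Ehbp1 (0.0752) and Gstt3 (0.1). Likeness over 4 libraries is common: 134 genes lay within 0.3 of Pf4, 133 within 0.3 of Folr2 and 1840 within 0.3 of F13a1.

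Other genes used to mark border macrophages changed in both directions. Of 24 such genes, 23 were tested, 12 were higher, 4 were lower and 7 did not pass (median log2 fold change 0.78, against -0.01 over all tested genes). Timd4, among the 12, held 4 and 0 counts in mock and passed the filter only through its LysoPS libraries, so these counts are descriptions. The membrane protein genes Ms4a6c (2.84) and Ms4a7 (1.42), the NAD-consuming ectoenzyme gene Cd38 (2.69) and the inhibitory lectin gene Clec12a (1.83) rose. Ms4a7 went from a mean of 104.0 to 257 TPM, and Cd38 from 6.88 to 38.1 TPM. Hpgd, which encodes the enzyme that inactivates prostaglandins, fell from 64.0 to 15.1 TPM (-1.91), and the endothelin receptor gene Ednrb (-0.99), which astrocytes also transcribe, the bridging ligand gene Gas6 (-0.65) and the scavenger receptor gene Colec12 (-0.45) fell too. Mrc1 stood at 33.1 TPM in mock and 30.2 TPM after LysoPS (log2 fold change 0.04, SE 0.090, adjusted p = 0.747). Cd163 held 13 and 28 counts in mock and 32 and 31 after LysoPS (adjusted p = 0.295).

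Markers of several cell types moved in the same libraries. Of 15 general macrophage markers, 13 were higher and 2 did not pass (median log2 fold change 0.57). The summed level of the 15 ranged from 4664 to 4890 TPM in mock and from 7877 to 8499 TPM after LysoPS. Adgre1 (mean 114.1 to 1193 TPM) and Fcer1g (459.1 to 1549 TPM) gained the most TPM. C1qc (745.5 to 766.9 TPM) and Cd68 (528.9 to 531.6 TPM) were the 2 that did not pass. Of 11 microglia markers, 9 were tested, 2 were higher and 4 lower (median 0.01; 1156 to 1254 TPM in mock, 1069 to 1102 TPM after LysoPS). Of 9 astrocyte markers, 8 were lower and 1 did not pass (median -1.06; 6934 to 7566 TPM in mock, 2940 to 3495 TPM after LysoPS). Of 7 fibroblast markers, 3 were lower (median -0.16; 6382 to 6741 TPM in mock, 4541 to 5083 TPM after LysoPS), among them Fn1, which is also on the monocyte list. The rises of Pf4 and Cd209f and the falls of Folr2 and F13a1 thus stood beside higher general macrophage markers and lower astrocyte markers, and the part of either in them was not tested.

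Some markers of further cell types changed, and others had no counts. Of 7 monocyte markers, 3 had no count in any library, Ly6c2 and Chil3 among them, 3 were tested and 1 (Fn1) was lower; the summed level was 1832 and 2022 TPM in mock and 1086 and 1370 TPM after LysoPS, nearly all of it Fn1 and Vcan. Of 7 dendritic cell markers, 4 were tested and the integrin gene Itgax was higher (log2 fold change 1.33), with Flt3 at 0 to 10 counts. Of 7 endothelial markers, 5 were tested and Cdh5 (-0.93) and Kdr (-1.46) were lower, while Cldn5, a tight junction gene that defines brain endothelium, held 2 counts in mock replicate 1 and none elsewhere. Of 6 mast cell markers, 4 had no count and only Kit was tested, and it was lower (-1.32). Of 6 choroid plexus epithelium markers, Ttr rose from a mean of 212.5 to 1354 TPM, Cldn2 rose by 0.58 on the log2 scale, and 4 did not pass.

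**Figure D4:**
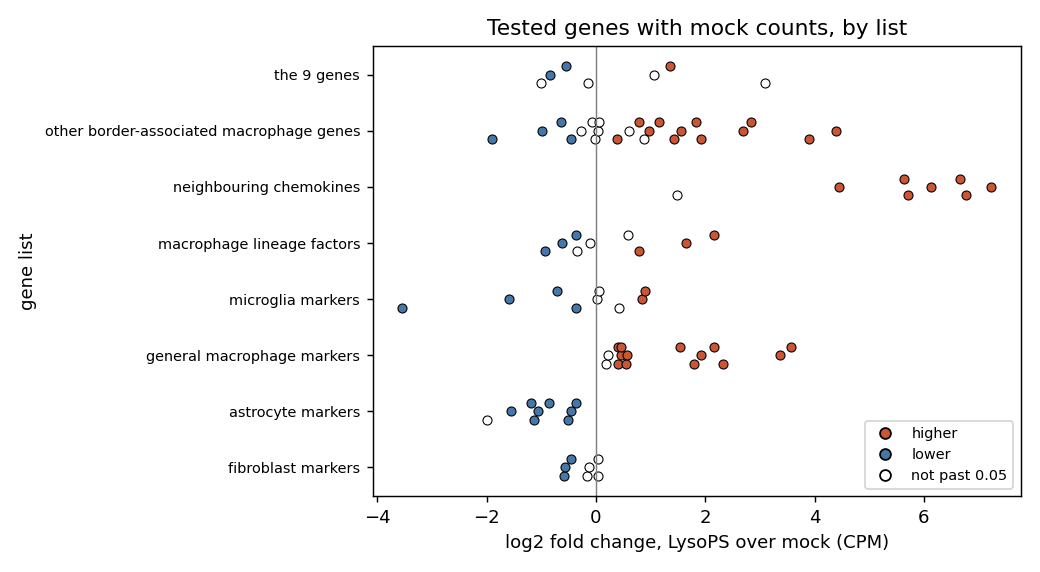
Log2 fold change of LysoPS over mock for tested genes with at least 1 mock count, 1 point per gene, orange where called higher, blue where called lower and white where not past an adjusted p of 0.05. The 9 genes (7 drawn) and the other border macrophage genes lie on both sides of 0, the general macrophage markers lie above it and the astrocyte markers below it.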

How the data were processed

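Messenger RNA was sequenced paired-end from 4 libraries of primary microglia cultures. FastQC 0.11.2, Trimmomatic 0.36, HISAT2, StringTie and the build GRCm38 are named in the submitters' processing notes; settings, counting program and annotation release are not given in the sources used here. The deposited table has columns of counts, TPM and FPKM for each library, per the file headers. The deposited counts are whole and unnormalized, the deposited TPM values were used for levels, and the deposited FPKM values only for the transcript length they imply together with the counts. All 9 gene models have the same coordinates in GENCODE M21.

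Counts were fitted with edgeR 4.0.16 in R 4.3.3 (filterByExpr with a minimum count of 10, TMM, quasi-likelihood F test, 2 residual degrees of freedom, two-sided, threshold 0.05), and the SE is the log2 fold change divided by the root of F. With 2 libraries a group, precision rests mainly on the spread shared over genes. Gene lists were described by counts and medians. Named genes were the 9, up to 4 per list and direction with the smallest p, CD209, neighbouring chemokine and receptor genes, and the 2 genes nearest in pattern, of which some are not reported here; further markers were named to check labels or after their values were seen. The 9 genes and the lists were chosen with earlier results of these data known. When LysoPS against mock was simulated over 18679 genes, 9 of 67 genes changed 1.5-fold, 39 of 67 changed 2-fold and 57 of 66 changed 4-fold were recovered, with 5 false calls among 110. No other genes were changed in the simulation, a far smaller share than the 25.5% called in the data. The adjustment is stricter where fewer genes change, so these recovery rates may not hold for the data. Alternatives were DESeq2 1.42.0 and its size factors, limma 3.58.1 (voom, and log2 TPM with pseudocounts of 1 and 0.1), 2 other filters, robust dispersion, blocking on the replicate number, leaving out each library and, added after seeing the data, Cd209f and Cd209g summed. Floors use 3 counts.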

Additional observations from a re-analysis of the deposited data

How the results depend on the processing

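Pf4 was called higher under all 14 alternatives. Cd209f was called in all 13 that kept it, which its 0 mock counts and its entry through the LysoPS libraries alone make no sign of stability. Folr2 was called in 12 of 14 and F13a1 in 11 of 14; the calls were lost in fits with 3 libraries, and the cause was not tested. Leaving out 1 library gave 2165 to 5356 calls over all genes (1161 to 2768 higher, 986 to 2588 lower) against 4854 (2447 and 2407), and 2 to 4 calls among the 9 genes (2 to 3 higher, 0 to 2 lower) against 4. Where 1 library remained in a group it was assumed to vary like the other group. The log2 fold change of Clec10a, -0.14, ranged from -0.894 to 0.791 when 1 library was left out, and was above 0 without mock replicate 1 (0.79) and without LysoPS replicate 1 (0.28). The stricter filter of 5 CPM kept 3 of the 9 genes and left 1 higher. On log2(TPM + 1) the median over all genes was -0.14, and 1353 genes were higher and 3088 lower, with 4 of the 9 genes higher; on log2(TPM + 0.1) the median was -0.18, with 1330 higher and 3018 lower. Replicate numbers are shared between groups without a stated meaning, and the replicate differences of the 2 groups correlated at 0.112 across genes. The microglia marker Cx3cr1 was far higher in replicate 1 of both groups. Its CPM was 132.5 against 13.39 for the mock replicates and 175.6 against 19.51 for the LysoPS replicates. The astrocyte marker Gja1 was higher in mock replicate 1 (1450 against 619.1 CPM) but lower in LysoPS replicate 1 (141 against 374.9 CPM). What set the replicates of either gene apart was not tested. With the replicate block 5433 genes were called and 5 of the 9, the added gene being Ccl8 (adjusted p = 0.0479). Ccl8 entered that fit only through its LysoPS libraries, so its call is a description. At these depths genes with about 10 counts a library, such as Ccl24 and Clec10a, had wide counting intervals.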

Other observations

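Alternative macrophage activation is a state in which several of the 9 genes are also made. Of 13 such genes, 8 were tested, 3 were higher and 1 lower (median log2 fold change 0.51, against -0.01 over all tested genes). Arginase Arg1 went from 54 and 86 counts in mock to 417 and 410 after LysoPS, and the interleukin-4 receptor gene Il4ra rose by 1.80. The chemokine gene Ccl22 had no count in mock and 18 and 14 after LysoPS, at least 10.2-fold higher. Like Cd209f, Ccl22 passed the filter only through its LysoPS libraries, so its call is a description. The transglutaminase gene Tgm2 fell by 0.56. Retnla, Chil3 and Mgl2, which mark that state in mouse macrophages, had no count in any library.

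Transcription factor genes of macrophage lineages changed in both directions. Of 10, 4 were higher and 3 lower. Spic, a factor of iron-recycling macrophages, had no count in mock and 123 and 164 after LysoPS, at least 91.8-fold higher (adjusted p = 0.00151). Like Cd209f, Spic passed the filter only through its LysoPS libraries, so its call is a description. Spi1, which encodes PU.1, rose by 2.15 and Maf by 0.78. Sall1, a factor of microglial identity, fell by 0.36 and Klf4 by 0.62.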
